A study of Mus musculus with 9 samples.

Results

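The genes described here are the 4 adult globin genes of the mouse and the erythroid enzyme of heme synthesis. They are *Hba-a1* and *Hba-a2* (alpha chains of hemoglobin), *Hbb-bs* and *Hbb-bt* (beta chains) and *Alas2* (5-aminolevulinate synthase 2). These 5 of the 19746 genes in the deposited matrix were chosen by symbol, and all 5 were found. They were followed through single-cell RNA sequencing of brain cells from male C57BL/6J mice, taken from whole brains without cerebellum after perfusion of the animals with ice-cold buffer. The mice were young adults of 2 to 3 months, aged mice of 18 to 20 months, or aged mice given exenatide, an agonist of the GLP-1 receptor, at 5 nmol per kg and day by intraperitoneal injection for 4 to 5 weeks from an age of 17 to 18 months. Each group has 3 libraries, numbered 1, 2 and 4, and each library's label names 3 mice, so that by this label a library is a pool of animals and p-values measure the spread between such pools. The study's text gives another number of mice per group, and how the libraries map to animals could not be settled. No group carries a transgene or a deletion.

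Hemoglobin is a tetramer of a pair of alpha chains and a pair of beta chains, each of which holds a heme, an iron-containing ring that binds oxygen. Red blood cells fill with it during their maturation, and the youngest of them in the circulation, the reticulocytes, still hold globin mRNA. ALAS2 catalyses the first step of heme synthesis in the erythroid lineage, while other cells use its relative ALAS1. In a droplet library, RNA released from broken cells is captured along with the content of each cell, so that cells of every type can show molecules of genes that they do not express.

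The promoters of the members are shown because these genes are found together in the cells described below. Each line gives the 120 bases before the transcription start of the RefSeq annotation (GRCm38.p6), 5′ to 3′ on the strand of the gene, with matches to 4 short motifs in capitals. The motifs, searched on both strands, were a GATA motif (AGATAA and AGATAG, or either of them with T as its first base), the CACCC box, the CCAAT box and the TATAA box. In this order they were held by 26.5%, 52.0%, 33.8% and 22.8% of all 32851 promoters in the 250 bases before the start.
Hba-a1, chr11:32283552-32283671, plus strand: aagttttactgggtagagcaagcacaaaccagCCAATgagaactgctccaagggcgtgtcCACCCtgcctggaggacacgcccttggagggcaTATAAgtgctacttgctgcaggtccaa
Hbb-bs, chr7:103827929-103828048, minus strand: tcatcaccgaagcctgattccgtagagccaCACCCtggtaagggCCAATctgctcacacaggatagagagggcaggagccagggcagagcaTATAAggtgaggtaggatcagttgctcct
Hbb-bt, chr7:103813924-103814043, minus strand: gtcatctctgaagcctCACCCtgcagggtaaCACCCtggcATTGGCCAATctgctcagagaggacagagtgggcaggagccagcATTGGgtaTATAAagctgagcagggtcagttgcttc
Alas2, chrX:150547297-150547416, plus strand: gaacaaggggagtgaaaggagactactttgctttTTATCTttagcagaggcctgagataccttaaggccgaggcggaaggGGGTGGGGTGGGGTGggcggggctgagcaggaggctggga
The 3 globin promoters held the last 3 motifs in this stretch. In the same stretch, that of *Alas2* held a GATA match and 3 CACCC matches, both on the opposite strand, and neither a CCAAT nor a TATAA box. Farther from the start, within the 250 bases, *Alas2* had 2 overlapping TATAA matches. *Hbb-bt* had no GATA match in 250 bases, and *Hba-a1* and *Hbb-bs* had 1 each, farther from the start than the bases printed. Promoters of the paired genes were aligned without gaps. The promoter of *Hba-a2*, on chromosome 11 as well, was identical to that of *Hba-a1* at 247 of 247 aligned bases. Those of *Hbb-bs* and *Hbb-bt* matched at 127 of 249 (51.0%). A single inserted or missing base lowers such a value, so it understates how alike the beta promoters may be. Their likeness with gaps allowed was not measured. A match is a string of letters and not a tested binding site.

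The transcripts of the paired genes are also alike, and this limits how far their counts can be told apart. In the GENCODE M21 annotation, *Hba-a1* (chr11:32283511-32284465, 3 exons) shared 75.7% of the 98-base windows within 500 bases of its transcript end with *Hba-a2* (chr11:32296489-32297298). *Hbb-bs* (chr7:103826534-103828096) shared 60.5% of them with *Hbb-bt* (chr7:103812524-103813996). The split of molecules within the alpha pair and within the beta pair is therefore uncertain, and sums of alpha and of beta genes are given where it matters. How reads from shared windows were counted was not checked, and the alpha pair shares more windows. The sums, and the level of alpha against beta genes, can therefore carry an error as well. The starts of this annotation lie upstream of those of RefSeq, so that the stretches printed for *Hba-a1* and *Hbb-bs* fall within its genes and those of *Hbb-bt* and *Alas2* overlap them. *Alas2* (chrX:150547375-150570638, 11 exons) has no such partner among the members.

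The measured unit is the unique molecular identifier (UMI), which counts captured mRNA molecules by their 3′ end, so that levels of different genes need no scaling by length. The 9 libraries held 938 to 15019 cells and 2550943 to 21920194 UMIs, with aged library 1 the smallest, and the median cell of a library held 922 to 2618.5 UMIs. Of 70317 cell barcodes, 2209 occurred in more than 1 library. The authors annotated 16 cell types. Among them are endothelial cells (EC), microglia (MG), astrocytes (AC), pericytes (PC), smooth muscle cells (SMC), choroid plexus cells (CPC) and 254 cells named hemoglobin-expressing vascular cells (Hb_EC). The last were named from these genes, so the difference between Hb_EC and other types is given without a test.

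Most globin mRNA lay in very few cells. The 4 globin genes had 240972 UMIs in all 72543 cells, and the 254 Hb_EC held 203258 of them (84.3%). *Hbb-bs* was the most abundant, with 120830 UMIs in all cells, followed by *Hba-a1* with 59943, *Hba-a2* with 43649 and *Hbb-bt* with 16550. *Alas2* had 570 UMIs, 517 of them in Hb_EC (90.7%). The share in Hb_EC was similar for each globin gene, from 83.6% for *Hbb-bs* to 86.0% for *Hbb-bt*.

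**Figure D1:**
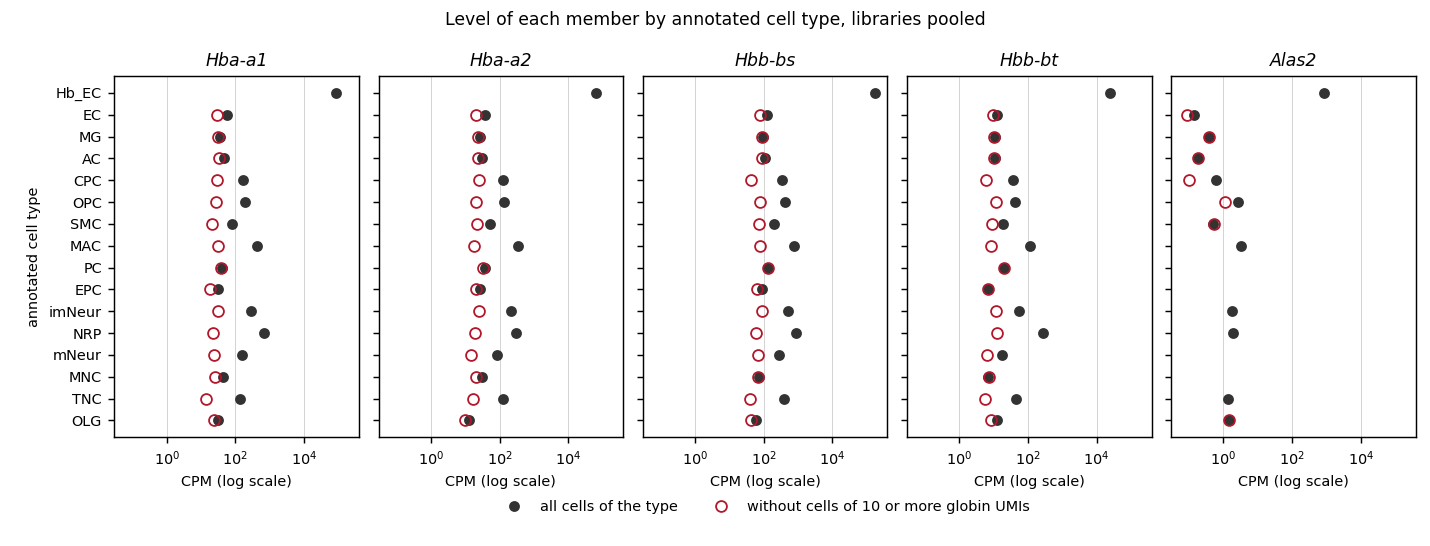
Level of each member in CPM (UMIs of the gene per 1000000 UMIs of the summed cells, log axis) in the 16 annotated cell types, with the cells of the 9 libraries pooled; filled points are all cells of a type, open circles leave out cells with 10 or more globin UMIs, and a level of 0 has no point. Hb_EC lie near 1000 CPM for *Alas2* and above 10000 CPM for each globin gene, and the open circles of the other 15 types lie between 5.49 and 129 CPM for the globin genes.

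In Hb_EC, the globin genes were among the largest parts of the transcriptome. *Hbb-bs* reached 171553 CPM (UMIs per 1000000 UMIs of the summed cells), *Hba-a1* 86246 CPM, *Hba-a2* 63352 CPM and *Hbb-bt* 24191 CPM, against 127, 56.8, 37.0 and 12.6 CPM in EC. Every Hb_EC held *Hbb-bs*, *Hba-a1* and *Hba-a2*, and 246 (96.9%) held *Hbb-bt*. *Alas2* stood at 878 CPM in Hb_EC and was found in 142 of 254 cells (55.9%, exact 95% interval 49.6 to 62.1%, which covers counting error only). In EC, 5 *Alas2* UMIs were found in 4 of 20403 cells (0.0196%), where the median cell held 1395 UMIs compared with 2088.5 in Hb_EC.

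The Hb_EC differed widely among themselves. Their globin UMIs ran from 11 to 4494 per cell, 216 cells had 100 or more and 38 had fewer. The globins made up a median of 28.2% of a cell's UMIs, from 1.16 to 86.3%. The median Hb_EC held 266.5 UMIs of *Hbb-bs*, 140 of *Hba-a1*, 99 of *Hba-a2*, 22 of *Hbb-bt* and 1 of *Alas2*. The beta gene *Hbb-bs* was thus ahead of both alpha genes in the typical cell as in the sum. Of the 254 cells, 18 shared their barcode with a cell of another library.

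Hb_EC were found in all 9 libraries, in unequal numbers. Young adult libraries 1, 2 and 4 gave 7, 13 and 84 of these cells, the aged libraries 2, 54 and 9, and the exenatide-treated libraries 45, 21 and 19. The mean number of *Hbb-bs* UMIs per Hb_EC was 683, 374 and 274 in the young adult libraries, 577, 376 and 611 in the aged ones and 548, 413 and 422 in the treated ones. The ranges of the groups overlapped, and the lowest mean belonged to the library with most Hb_EC. For *Alas2* the means were 4.14, 2.08 and 0.917 in young adult, 3.00, 2.56 and 4.22 in aged and 2.56, 2.33 and 2.00 in treated libraries, which overlapped as well. *Alas2* was found in 45.2 to 77.8% of the Hb_EC of a library.

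The share of Hb_EC among all cells crosses this account and was compared between groups. It was 0.429% ± 0.417 (SD, n = 3) in aged and 0.265% ± 0.256 in young adult libraries (exact two-sided permutation test, p = 0.5) and 0.306% ± 0.155 in exenatide-treated libraries (p = 0.8 against aged, where 0.1 is the smallest p possible). Without aged library 2, which held 54 Hb_EC, both differences changed sign, to -0.0769 and 0.117 percentage points. The test did not use the pairing of libraries by number. In libraries 1, 2 and 4 the shares were 0.0947, 0.142 and 0.559% in young adult, 0.213, 0.910 and 0.164% in aged and 0.471, 0.283 and 0.163% in treated mice.

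The composition of the globin mRNA was similar but not constant. Alpha genes made up 43.3% of the globin UMIs of Hb_EC (exact 95% interval 43.1 to 43.5%), *Hba-a1* made up 57.7% of the alpha UMIs, and *Hbb-bt* 12.4% of the beta UMIs. By library, the alpha share ran from 37.5% in exenatide-treated library 2 to 47.6% in young adult library 4. The exact intervals of these libraries, 36.7 to 38.2% and 47.1 to 48.0%, lie apart. Here and below, intervals of globin shares treat each UMI as independent and cover counting error only. The UMIs of these 2 libraries came from 21 and 84 Hb_EC, and the spread between cells is not in the intervals.

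*Alas2* was found more often in Hb_EC with more globin, and *Hbb-bt* made up more of their beta UMIs when libraries were pooled. When the Hb_EC were ordered by the globin share of their UMIs and divided into 4 sets of 63 or 64 cells, *Alas2* was found in 15.6, 41.3, 69.8 and 96.9% of cells from the lowest to the highest set. The mean was 0.188, 0.730, 2.92 and 4.30 *Alas2* UMIs per cell. The share of *Hbb-bt*, which is itself part of the globin sum used for the order, among beta UMIs was 6.89, 8.74, 10.4 and 14.8%, while the alpha share went from 48.6 to 45.2, 42.4 and 43.0%. The median totals were 1568, 1695, 2673 and 2542.5 UMIs per cell, so that depth moved with the order, and its part in these values was not tested. In the 4 libraries with 20 or more Hb_EC, each divided at its middle in the same order, *Alas2* was found in 21.4, 25.9, 39.1 and 27.3% of the cells with less globin and in 69.0, 88.9, 90.9 and 80.0% of those with more. The *Hbb-bt* share of beta UMIs was less uniform, going from 8.50 to 13.5% in young adult library 4, 10.9 to 12.1% in aged library 2 and 6.37 to 13.2% in exenatide-treated library 1, but from 14.02 down to 12.8% in exenatide-treated library 2.

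**Figure D2:**
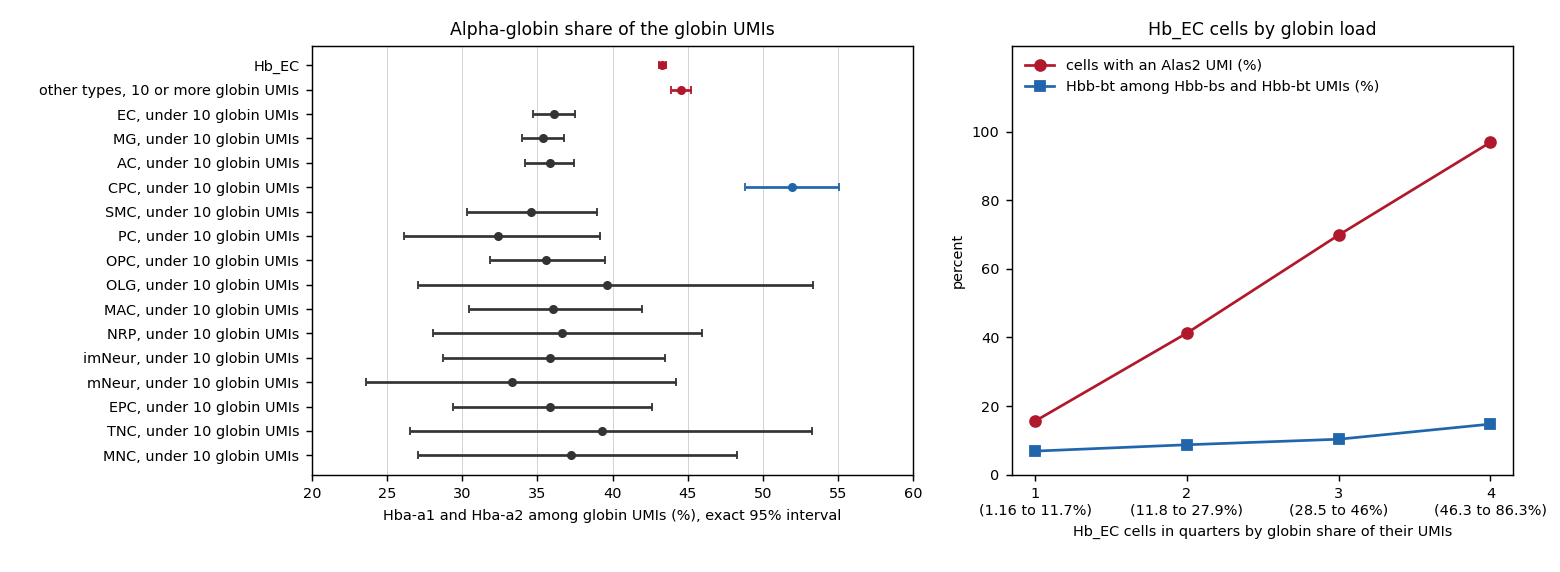
Left, share of *Hba-a1* and *Hba-a2* among the globin UMIs (%, points, with exact 95% binomial intervals as bars) in Hb_EC, in cells of other types with 10 or more globin UMIs, and in the remaining cells of each type. Right, percentage of Hb_EC with *Alas2* and percentage of beta UMIs from *Hbb-bt* in 4 sets of Hb_EC ordered by globin share; CPC stand at 52.0% on the left, and *Alas2* goes from 15.6 to 96.9% on the right.

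Other erythroid genes were higher in Hb_EC than in EC, and endothelial markers were lower. For these genes, CPM were computed without the globin UMIs, since the latter take up much of each cell. Over the 11762 genes with at least 50 UMIs in Hb_EC and EC together, the median ratio of Hb_EC to EC was 0.986. The ratios of list genes needed only more than 3 UMIs in EC, so that scarce genes enter the lists but not this median. Of 35 erythroid genes in the list, 30 were in the matrix and 28 of these were higher in Hb_EC, with a median ratio of 8.60 among the 21 with more than 3 UMIs in EC. *Mkrn1* (a ubiquitin ligase) was found in 39.8% of Hb_EC and 12.8% of EC, and *Ube2l6* (a ubiquitin-like conjugating enzyme) in 37.0 and 9.86%. *Bnip3l*, which drives the removal of mitochondria in maturing red cells, was found in 56.7 and 50.4%.

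The 6 endothelial markers (*Cldn5*, *Flt1*, *Pecam1*, *Cdh5*, *Ly6c1* and *Itm2a*) were all lower in Hb_EC than in EC, with a median ratio of 0.740, and 90.2% of Hb_EC held at least 1 of them. Their summed level without globin UMIs was 15247, 12720, 14306 and 12101 CPM in the 4 sets from low to high globin, while that of the erythroid list was 1064, 2030, 4051 and 12642 CPM. The erythroid list was thus highest in the cells with most globin, in an order that the endothelial markers did not follow. This order was not particular to it, since the microglial markers rose too, at 176, 269, 341 and 818 CPM. Between the lower and upper cells of a library, the endothelial level went from 13448.5 to 10542 CPM in exenatide-treated library 1. It went from 13568 to 10473 in treated library 2, 13256 to 13988 in young adult library 4 and 15137 to 15157 in aged library 2. Several marker lists of other types were also above their level in EC, with median ratios of 8.88 for the 4 astrocyte genes, 6.87 for the 3 pericyte genes, 6.76 for the 3 choroid plexus genes and 1.98 for the 4 microglial genes. The ratios were 5.06 for the 3 smooth muscle and 5.52 for the 2 OPC (oligodendrocyte precursor cell) genes, and near that of all genes for the 3 neuronal ones (1.08). Of the 3 oligodendrocyte genes, only 1 was higher in Hb_EC and *Mog* had 0 UMIs there. The median of the 2 ratios available was 1.87, while 9.45% of Hb_EC and 13.5% of EC held at least 1 of these genes. Among blood cells, the 2 lymphocyte genes *Cd79a* and *Cd3e* stood at 15.9, on 8 and 1 UMIs in Hb_EC, the platelet list at 3.21 with *Gp9* at 0, and the neutrophil list at 0.549 with *Retnlg* at 0. The monocyte markers *Plac8* and *Ly6c2* had 0 UMIs in Hb_EC. Whether a barcode held 1 cell or several was not tested.

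Heme synthesis genes were less uniform. Of 15 genes of the pathway and its mitochondrial transport, 11 were higher in Hb_EC than in EC, with a median ratio of 1.53. *Fech*, the ferrochelatase that inserts iron into the ring, was found in 19.7% of Hb_EC and 2.90% of EC, and *Slc25a37* (mitoferrin 1, the mitochondrial iron importer of erythroid cells) in 13.8 and 1.17%. *Alas1*, the synthase of other tissues, was found in 18.1 and 26.2%, and *Tmem14c*, a porphyrin transporter, in 17.7 and 21.6%. The medians of the lists for heme breakdown and export (0.852, 3 of 7 higher) and iron (1.05, 5 of 10 higher) lay near that of all genes. The heaviest of these, the ferritin chains *Ftl1* and *Fth1*, were found in 96.5 and 93.3% of Hb_EC. Of the 4 scavengers of globin and heme, *Lrp1*, the receptor of hemopexin, had 17 UMIs in Hb_EC, *Cd163*, the receptor of haptoglobin-hemoglobin, and *Hpx* (hemopexin) 1 each, and *Hp* (haptoglobin) 0.

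Among the other globins, 6 of 13 listed genes were in the matrix. *Hbq1a* and *Hbq1b*, theta globin genes of the alpha cluster, had 5 and 4 UMIs in Hb_EC and 0 in EC. Cytoglobin (*Cygb*), a globin of non-erythroid cells, had 5 UMIs in Hb_EC and 594 in all other types. *Hbb-y*, a beta-like globin of the embryo, had a pattern unlike that of the adult genes. Of its 111 UMIs, 109 lay in 50 EC and 1 in Hb_EC, and of these 50 cells 30 were of the arterial subtype aEC2 (1.06% of 2832 cells), compared with 1 of 4012 capillary cells (0.0249%). *Hbb-y* was found in EC of 8 of 9 libraries, in 0.153 to 0.394% of cells, with up to 11 UMIs in a cell. Adult globin UMIs were present in 14 of the 50 cells (28.0%, against 19.2% of all EC), and in no case were there 10 or more.

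Outside Hb_EC, a small number of cells carried most of the globin UMIs of the pooled libraries. Of 72289 such cells, 81.2% had no globin UMI and 18.2% had 1 or 2. Only 97 cells (0.134%) had 10 or more, and these held 21590 of the 37714 globin UMIs outside Hb_EC (57.2%), with up to 2501 in a cell. By library their part ran from 3.92% in aged library 1 to 73.7% in exenatide-treated library 1, and it was below 50% in 5 of the 9 libraries. It was also lower in EC (42.0%), AC (22.1%) and MG (8.91%). They were annotated as EC (36 cells), AC (14), MG and CPC (10 each), OPC and SMC (6 each) and smaller numbers of every other type. Of the 97, 47 belonged to the same deposited cluster as the Hb_EC, which held 303 cells in all. *Alas2* was found in 11 of the 97 cells (11.3%) and in 27 of the other 72192 (0.0374%). Of these 38 cells with *Alas2*, 19 had 0 globin UMIs.

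**Figure D3:**
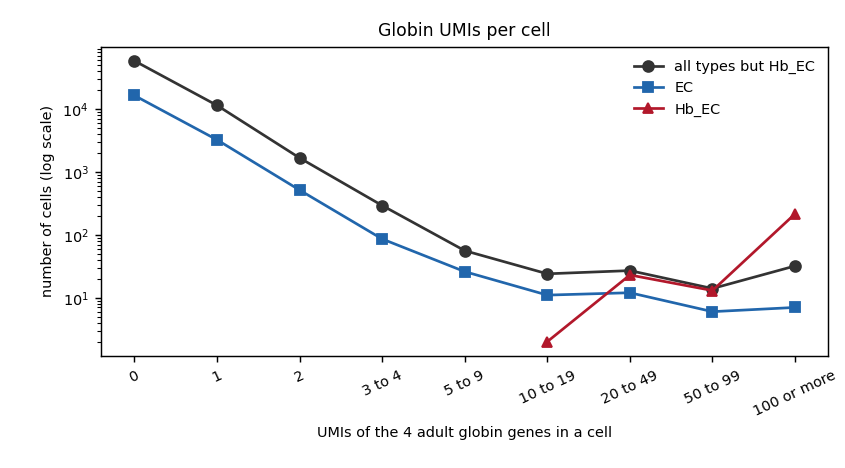
Number of cells (log axis) by the number of UMIs of the 4 adult globin genes in a cell, for EC, for all types other than Hb_EC and for Hb_EC; points are counts of cells and classes without cells have no point. Outside Hb_EC the counts fall up to the class of 10 to 19 UMIs and are then 24, 27, 14 and 32 cells in the last 4 classes (11, 12, 6 and 7 in EC), while 216 of the 254 Hb_EC lie at 100 or more.

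The level of the globin genes in many types depended on these cells. With all cells, *Hbb-bs* was at 877 CPM in neuronal restricted precursors (NRP), 766 CPM in macrophages (MAC), 348 CPM in CPC and 127 CPM in EC. Without the cells of 10 or more globin UMIs the same levels were 59.7, 78.3, 43.6 and 77.1 CPM. The order of types thus changed, since 3 of 495 NRP and 4 of 1239 MAC held 94.7 and 91.8% of the globin UMIs of their type.

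In the remaining cells, each globin gene was found at a low level in every type. *Hbb-bs* was present in 8.08 to 12.8% of the cells of the 15 other types, *Hba-a1* in 3.06 to 6.26%, *Hba-a2* in 2.31 to 5.67% and *Hbb-bt* in 1.30 to 3.23%, counted over all cells of a type. With cells of 10 or more globin UMIs left out, the mean was 0.156 to 0.244 globin UMIs per cell. EC were not set apart: *Hbb-bs* was found in 11.96% of EC (median depth 1395 UMIs per cell), 12.1% of MG (1296) and 10.96% of AC (1145). Among the EC subtypes, thinned to 500 UMIs per cell, the mean share of cells with *Hbb-bs* over libraries lay between 4.09 and 5.08%, with SDs of 2.40 to 3.46.

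This low level changed from library to library, and EC and MG changed alike. At 500 UMIs per cell, *Hbb-bs* was found in 5.03, 2.17 and 5.81% of EC in young adult libraries 1, 2 and 4, 4.24, 8.78 and 1.54% in aged and 8.22, 2.14 and 2.90% in exenatide-treated libraries. For MG the values were 4.54, 1.73 and 6.78%, then 3.36, 10.0 and 1.604%, then 8.01, 2.99 and 2.90%. Both types were thus highest in aged library 2, high in exenatide-treated library 1 and low in young adult library 2 and aged library 4. CPC followed this less closely in 2 libraries set side by side for the 4 globin genes together. Without thinning, CPC with fewer than 10 globin UMIs held 0.252 globin UMIs per cell in aged library 2 and 0.339 in young adult library 1. Such cells of EC, MG and AC together held 0.371 and 0.321. Their median depths in these libraries were 1037 and 1908 UMIs, against 1537 and 1658 for CPC, and the part of depth was not tested. For comparison, markers of one type were also found in another: *Ttr*, the transthyretin of choroid plexus, in 63.2 to 96.7% of MG of a library, the endothelial *Cldn5* in 9.27 to 17.5% of MG, and the microglial *Ctss* in 5.07 to 12.6% of EC. *Hbb-bs* in MG, counted the same way without thinning, ranged from 2.99 to 19.4%.

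**Figure D4:**
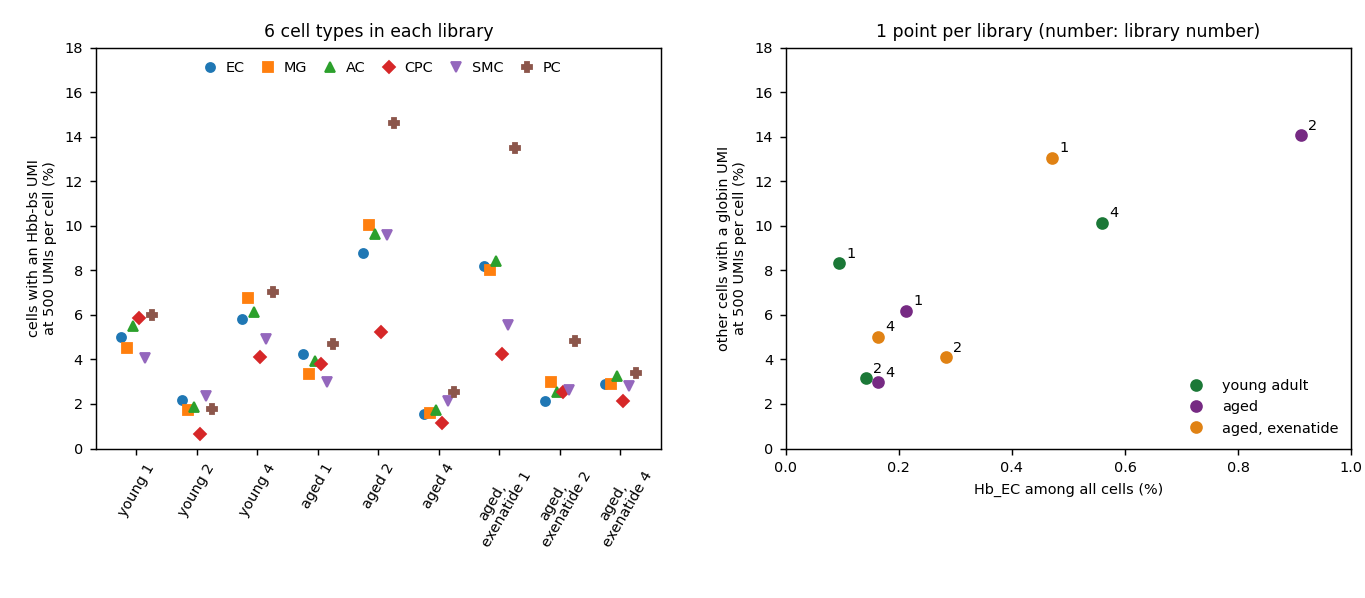
Left, percentage of cells with *Hbb-bs* at 500 UMIs per cell in 6 cell types of each library. Right, percentage of cells with a globin UMI at 500 UMIs per cell, among cells with fewer than 10 globin UMIs outside Hb_EC, against the percentage of Hb_EC among all cells, 1 point per library. On the left, EC, MG and AC lie near the median of the other types of their library (mean difference -0.144, -0.0186 and 0.207 points). CPC, SMC and PC lie farther from it (-1.37, -0.579 and 1.92). On the right, aged library 2 is highest on both axes, at 14.1% and 0.910%.

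Libraries with more Hb_EC also had more globin UMIs elsewhere. The share of cells with a globin UMI at 500 UMIs per cell, with Hb_EC and cells of 10 or more left out, was 8.33, 3.16 and 10.2% in young adult, 6.18, 14.1 and 2.98% in aged and 13.1, 4.11 and 5.01% in treated libraries. Over the 9 libraries it correlated with the share of Hb_EC with Pearson's r = 0.816 (exact permutation test, p = 0.00696) and Spearman's rho = 0.617 (exact p = 0.0857). Without the 2 libraries farthest from the median share of Hb_EC, r was 0.668 (exact p = 0.114, n = 7), so that the relation rests in part on those libraries. Within the 3 batches, libraries of 1 number, r was 0.812, 0.996 and 0.961 over 3 libraries each, too few for a test. This was the only relation of its kind computed, and Hb_EC held 79.6 to 93.2% of the globin UMIs of each library.

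Types were compared within libraries for the share of cells with each member at 500 UMIs per cell. For the 6 types with at least 20 cells in every library (EC, MG, AC, CPC, SMC and PC), the difference from the median of the other types was tested by exact two-sided sign flips over the 9 libraries, with p-values adjusted over types. *Hbb-bs* was higher in PC by 1.92 percentage points (SD 2.00, higher in 8 of 9 libraries, adjusted exact p = 0.0469) and in AC by 0.207 points (SD 0.2002, 8 of 9, adjusted exact p = 0.0469). Without thinning, both differences changed sign, to -1.14 and -0.858 points. No globin gene passed the test in EC, where the difference was -0.144 points (SD 0.436) for *Hbb-bs*. For *Alas2*, MG were higher by 0.0139 points (SD 0.0105, 7 of 9, adjusted exact p = 0.0938), on 11 UMIs in 11 of 19494 MG. No *Alas2* UMI was found in 1010 PC, where the median cell held 851.5 UMIs. A count of 0 allows up to 0.297% of PC with an *Alas2* UMI, which sets no limit on the cells that express the gene.

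The balance of alpha and beta UMIs was different in CPC, the epithelial cells that make cerebrospinal fluid. At 500 UMIs per cell, *Hbb-bs* in CPC differed from the other types by -1.37 points (SD 1.78, adjusted exact p = 0.0781). It was higher in 1 of 9 libraries and was not called. At 500 UMIs the share of CPC with *Hba-a1* exceeded that of the other types by 0.385 points (SD 0.947, 6 of 9 libraries, adjusted exact p = 0.741), and was not called. Without thinning it was higher by 2.24 points (adjusted exact p = 0.0469), and the median CPC held 2048 UMIs. The composition of the globin UMIs, a ratio within the same cells, was then compared. In cells with fewer than 10 globin UMIs, alpha genes made up 52.0% of the 1018 globin UMIs of CPC (exact 95% interval 48.8 to 55.1%), compared with 36.1% in EC, 35.3% in MG and 35.8% in AC and 32.4 to 39.7% in the other types. The CPC share was above that of EC, MG and AC together in 9 of 9 libraries, with exact intervals apart in 4 of them. In young adult library 2 it was 71.4 against 38.7%, in aged library 4 65.6 against 39.2%, and in exenatide-treated libraries 2 and 4 52.3 against 33.8% and 59.8 against 33.8%.

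Those 4 libraries were the ones with the lowest share of cells with a globin UMI outside Hb_EC. Per cell, CPC held more alpha UMIs than EC, MG and AC together in 8 of 9 libraries and fewer beta UMIs in 6 of 9, with pooled means of 0.125 against 0.0805 alpha UMIs and 0.115 against 0.145 beta UMIs. In CPM the alpha genes of CPC stood at 29.0 (*Hba-a1*) and 24.5 (*Hba-a2*), compared with 28.7 and 20.3 in EC, and *Hbb-bs* at 43.6 compared with 77.1. The higher alpha share of CPC thus appeared per cell as more alpha and, in the pooled means, fewer beta UMIs. In CPM, compared with EC alone, it appeared as less *Hbb-bs* at a similar level of *Hba-a1*. This comparison was made after the values were seen and has no test.

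The alpha share of Hb_EC was above that of the cells with few globin UMIs of the same library in 8 of 9 libraries, with exact intervals apart in 5. In aged library 4, the exception, the shares were 43.6 and 43.9%. *Hbb-bt* made up a larger part of the beta UMIs in Hb_EC in 8 of 9 libraries, with intervals apart in 3. *Hba-a1* within the alpha pair showed no such order, higher in 5 of 9 and with intervals apart in 0. These intervals cover the counting of UMIs only, not the spread between cells.

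The globin genes were then compared between groups in EC, MG and AC, the types with most cells, to ask whether age or exenatide moved them. None of the 4 globin genes passed the test in any of the 6 comparisons. The UMIs of all cells of a type were added up by library and tested with edgeR over all genes, where a call needs an adjusted p below 0.05 and an absolute *lnFC* (natural log of the fold change) above 0.1. *Alas2* was too low for the filter on counts in each of the 3 types and was not tested.

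Over the 24 tests of the globin genes, the *lnFC* ran from -0.412 to 0.791 and was positive in 16. By edgeR, 0 of 24 had an adjusted p below 0.05 and 0 an unadjusted p below 0.05 (smallest 0.215), and the same counts of 0 were given by DESeq2 (smallest p 0.134), by limma (0.267) and with the batch as a block (0.259). In edgeR fits with 1 library left out, 3 of 144 tests had an unadjusted p below 0.05 (smallest 0.0141) and 0 an adjusted p below 0.05. The *lnFC* of these fits ran from -1.06 to 1.44. The counts from all 9 libraries stand beside those of all genes. By edgeR without a block, 0% of 11052 genes in EC, 0% of 10312 in MG and 0.0186% of 10745 in AC were called for aged against young adult, and 0% in each type for treated against aged. At an unadjusted p below 0.05 there were 332, 244 and 225 genes for age and 56, 59 and 127 for treatment. With the library number as a block, which takes up the batches, 0.814% of genes were called in EC, 0.359% in MG and 0.279% in AC for age and 0% for treatment. DESeq2, fitted without a block, called 12 genes in EC and 7 in MG for age.

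*Hba-a1* showed the largest difference with age in EC. Its level was 29.6, 11.3 and 42.4 CPM in young adult libraries 1, 2 and 4, 38.9, 80.6 and 60.6 CPM in aged and 190 (library 1), 17.4 and 24.8 CPM in treated libraries. The aged libraries lay above 2 of the 3 young adult ones and overlapped with the third. Between libraries of the same number the aged one was higher in 3 of 3 pairs. In aged library 4, however, 1 EC with 10 or more globin UMIs held most of the alpha UMIs. All EC of that library had 206 *Hba-a1* and 106 *Hba-a2* UMIs. Its EC with fewer than 10 globin UMIs had 153 globin UMIs, 39.2% of them alpha. The order of the pairs thus depends on that cell. Treated library 1 was far above the other treated libraries, but its EC included 11 cells with 10 or more globin UMIs. All its EC had 886 *Hba-a1* and 1660 *Hbb-bs* UMIs. Its EC with fewer than 10 globin UMIs had only 1162 UMIs of the 4 globin genes together. Most of its globin UMIs in EC thus lay in those 11 cells. The *lnFC* of aged against young adult was 0.779 (SE 0.601, edgeR adjusted p = 0.9999, and 0.977, SE 0.752, adjusted p = 0.684 with the block; 60.1 ± 20.9 against 27.8 ± 15.7 CPM, SD, n = 3). When cells with 10 or more globin UMIs were left out, no *lnFC* of the 24 tests was above 0.393.

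For *Hba-a2* in EC, the values were 25.4, 10.7 and 28.1 CPM in young adult, 29.5, 66.7 and 31.2 CPM in aged and 108, 16.8 and 14.4 CPM in treated libraries. Here all 3 aged libraries were above the young adult ones, by a small margin in library 1 (*lnFC* 0.693, SE 0.536, and 0.336 to 0.8605 with 1 library left out). The value of aged library 4 again came mostly from the 1 EC with 10 or more globin UMIs, so this order depends on that cell. *Hbb-bs* was at 89.6, 37.6 and 125.9 CPM, then 79.0, 182 and 92.1 CPM, then 355, 59.4 and 67.2 CPM, and its groups overlapped (*lnFC* 0.338, SE 0.505, and 0.00717 to 0.619 with 1 library left out). *Hbb-bt* was lowest, at 9.40, 3.30 and 13.97 CPM, then 7.07, 13.9 and 2.94 CPM, then 39.2, 5.79 and 7.95 CPM.

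In MG and AC, aged library 2 and treated library 1 were the highest of their groups for each globin gene. Among all libraries this did not always hold: for *Hbb-bt* in MG, young adult library 4 (18.2 CPM) lay above treated library 1 (15.8 CPM). *Hbb-bs* in MG was at 85.8, 38.3 and 142 CPM in young adult, 54.7, 222 and 34.8 CPM in aged and 176, 67.2 and 56.8 CPM in treated libraries. In AC it was at 159, 46.6 and 112 CPM, then 57.7, 207 and 38.9 CPM, then 260.1, 57.2 and 58.8 CPM. For *Hbb-bs*, aged library 2 and treated library 1 were thus the highest of all libraries in both types. Within each group the libraries differed more than the group means did.

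**Figure D5:**
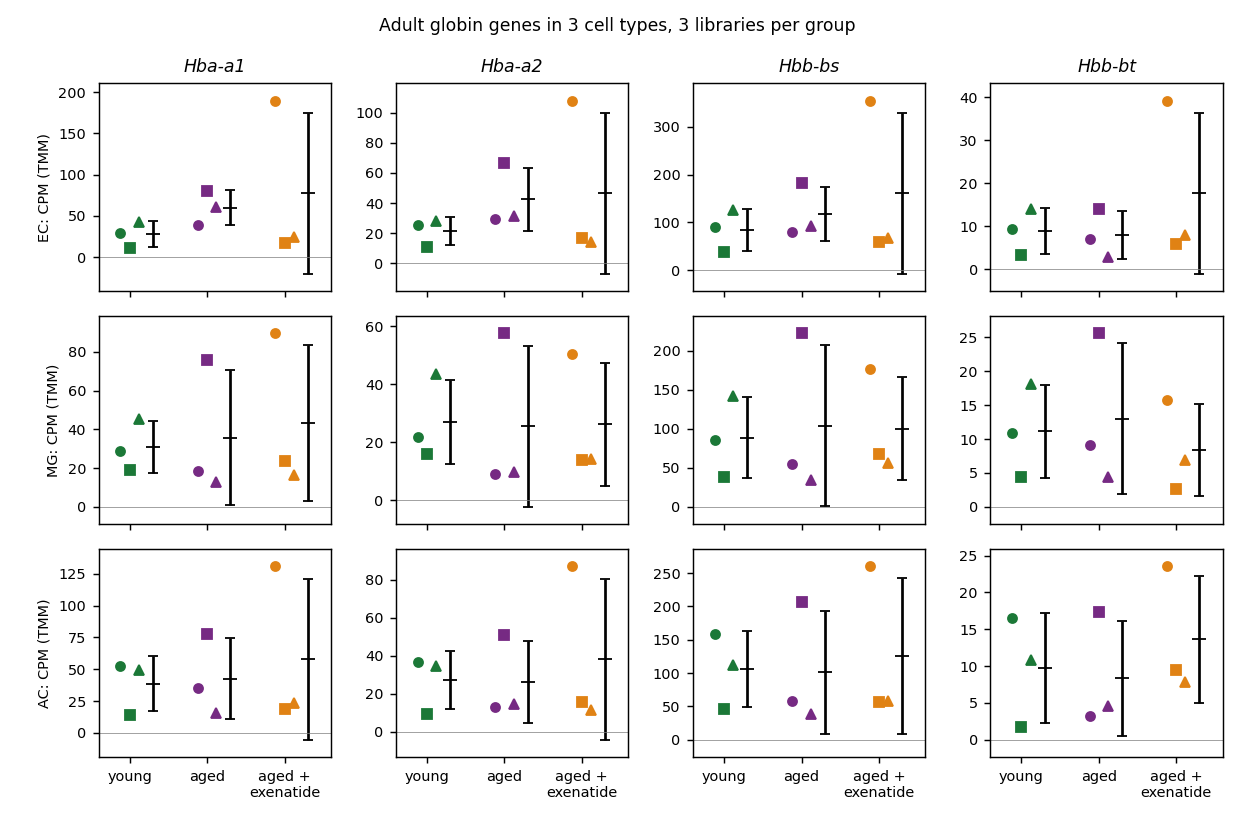
Level of the 4 globin genes (columns) in EC, MG and AC (rows) in CPM after TMM scaling (trimmed mean of M values); circles, squares and triangles are libraries 1, 2 and 4 of each group, and the bars to their right give mean ± SD (n = 3). Treated library 1 and aged library 2 lie above the other libraries of their groups in each panel, for example at 355 and 182 CPM for *Hbb-bs* in EC.

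Few other genes of the pathway were called. Without a block, 0 genes of the 6 lists were called in any comparison. With the block, 1 of 15 heme synthesis genes and 1 of 9 tested iron genes were called in EC for aged against young adult. In the same fit, 0.814% of all 11052 genes were called. In the remaining comparisons, 0 genes of the lists were called. *Alas1* was higher in aged libraries (*lnFC* 0.466, SE 0.103, edgeR adjusted p = 0.0326 with the block and 0.9999 without it), at 291 ± 155 against 171 ± 66.8 CPM (SD, n = 3). *Steap3*, a ferrireductase, was lower (*lnFC* -0.960, SE 0.198, edgeR adjusted p = 0.0202 with the block and 0.830 without it), at 7.32 ± 3.88 against 16.4 ± 1.12 CPM. The median *lnFC* of the heme synthesis list in EC was -0.00149 and that of the iron list -0.1395, beside 0.00582 for all genes.

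The genes whose levels followed *Hbb-bs* most closely across the 16 cell types (Pearson's r of log2(CPM + 1), 15689 genes, cells pooled over libraries) were led by the other members. *Hba-a2* had r = 0.997, *Hba-a1* 0.993, *Hbb-bt* 0.982 and *Alas2* 0.945. Also among the 10 most alike were *Gm9530* (0.729), *Zfp296* (0.702), *Fam220a* (0.698) and *Fech* (0.694). These values turn on Hb_EC, the type far above the rest. Over the 9 EC libraries, among 11052 genes, the 3 other globin genes were again first, with r of 0.965 (*Hba-a2*), 0.960 (*Hba-a1*) and 0.877 (*Hbb-bt*). They were followed by *Zfp532* (0.875), *Slc35e3* (0.811), *Irgm2* (0.797), *Arfip2* (0.765), *Hspbap1* (0.761), *Tmem127* (0.759) and *Dnmbp* (0.753). The points share their libraries and depth, and the correlations are descriptions.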

How the data were processed

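Brain cells were captured on the 10x Chromium platform (3′ chemistry, version 2) in 9 libraries. Per the paper's methods and the submitters' processing notes, the authors obtained UMI counts with Cell Ranger 3.0.0 on mm10. They kept genes seen in at least 3 cells and dropped cells in the lowest 5% or above the 95th percentile of UMIs or genes, cells over 20% mitochondrial UMIs and clusters that mixed markers. Doublets were not treated further here. Clusters and cell types came from Seurat 3.0.1. The deposited matrix holds natural log values, ln(1 + 10000 × UMI count / total of the cell), and the deposited table of cells gives the authors' total UMI counts, gene numbers, the mitochondrial share as a fraction, library, batch and type. Counts were recovered by inverting the log: 58404382 of 58404382 entries were whole within 1e-06, and their sums equalled the deposited total in 72543 of 72543 cells. Values of single cells were used from these recovered counts only.

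Cells were thinned to 500 UMIs by expected value. CPM are UMIs per 1000000 UMIs of the summed cells. Sums per library and type were tested with edgeR 4.0.16 (quasi-likelihood, robust, TMM, filterByExpr, all 9 libraries, Benjamini-Hochberg over all genes; R 4.3.3), after a test on simulated data. Limits were those of the study's methods (adjusted p below 0.05, absolute lnFC above 0.1). DESeq2 1.42.0 and limma 3.58.1 served as alternatives, as did a fit with the library number as a block, other filters and scalings, and leaving out each library. Each library number is 1 batch in the deposited table. Deviations from group means correlated at 0.501 to 0.767 in EC, 0.407 to 0.718 in MG and 0.383 to 0.619 in AC between libraries of 1 number, so the numbers pair the libraries. Single values were tested by exact permutation in Python 3.11.15 with scipy 1.17.1.

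The members, lists and comparisons were chosen with earlier results of these data known. Named genes are the members, the list genes called in a comparison, the 4 of each list highest in Hb_EC and the 10 most like *Hbb-bs* over types and over EC libraries. Some genes that this rule names are not reported here. *Hbb-y* falls under it, and the closer description of *Hbb-y* and the alpha share of CPC were added after their values were seen.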

Additional observations from a re-analysis of the deposited data

How the results depend on the processing

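Of 240 values of 19 results under other settings, 203 were labelled as unchanged. Most of these results are counts of types, genes or members called. A count was labelled as unchanged when it was equal to the main one or within a fixed fold of it. The counts of members called between groups were 0 in every setting, which adds to the 203. The differences of single members held less often: between types 69 of 210 changed sign under other settings and 19 of 270 with 1 library left out, and between groups 24 of 144 and 42 of 144. The number of types called for *Hba-a1* (0) was 1 at 1000 UMIs per cell (SMC, lower) and 1 without thinning, for at least 2 UMIs, for mean UMIs and for CPM (CPC, higher). For *Hba-a2* (0) it was 2 with mean UMIs (CPC higher, MG lower) and 1 with CPM (CPC), and 0 to 1 with 1 library left out. For *Hbb-bs* (2) it was 0 at 1000 UMIs, without thinning, for at least 2 UMIs and for CPM, 1 for mean UMIs, for the mean of the other types and without cells of 10 or more globin UMIs, and 0 to 2 with 1 library left out. The difference of AC for *Hbb-bs* was -0.858 points without thinning, -0.0490 points for at least 2 UMIs, -0.0308 mean UMIs and -17.4 CPM, and that of PC was -1.14 points without thinning and -0.0569 mean UMIs. The share of Hb_EC differed by -0.0769 to 0.311 points between aged and young adult and by -0.256 to 0.117 between treated and aged with 1 library left out.

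Between groups, no setting called a member, the replicate block included, and the cause of changed signs was not tested. The genes called for age were 12 by DESeq2 and 90 with the replicate block in EC, 7 by DESeq2, 3 without the filter and 37 with the block in MG, and 0 by limma, 6 without the filter, 30 with the block and 0 to 2 with 1 library left out in AC. The *lnFC* of *Hbb-bs* for treated against aged in EC was -0.0367 by limma, -0.0219 with the block and -0.0654 without cells of 10 or more globin UMIs. In AC it was 0.0249 by limma and 0.145 without these cells for age, and -0.0318 and -0.0747 for treatment. With 1 library left out, it ran from -0.628 to 0.633 for treatment in EC, -0.718 to 0.510 for age and -0.531 to 0.837 for treatment in MG, and -0.824 to 0.226 and -0.551 to 0.979 in AC, so that single libraries decide its sign. Depth limits *Alas2*, with 53 UMIs outside Hb_EC.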
